A study of Mus musculus with 19 samples.

Results

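Interferon-stimulated genes are the genes that cells switch on after an interferon binds its receptor. The 42 genes described here were chosen by name as members of known classes, by no rule on measured values, although earlier results of these data were known: transcription factors of the response, sensors of foreign RNA and DNA, the IFIT and oligoadenylate synthetase families, other antiviral effectors, interferon-inducible GTPases and interferon-inducible parts of antigen processing. Of the 42, 38 had at least 1 probe set annotated to that gene alone and were measured, among 15781 genes in all. Isg15, Usp18 and Xaf1 did not match a symbol of the probe annotation and the 2 probe sets of Oas1a were shared with other genes, so these 4 were not analysed here. All 38 measured genes were kept, with no filter on dim signal.

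The study profiled sorted mouse bone marrow progenitors on exon arrays, in 19 samples, to ask what the DNA methyltransferase Dnmt3a contributes when the leukaemia fusion gene PML-RARA is present. The groups were PR+/- Dnmt3a-/- granulocyte-monocyte progenitors (GMP, 4 arrays), PR+/- GMP (2 arrays), Dnmt3a-/- common myeloid progenitors (CMP, 3 arrays), Dnmt3a-/- GMP (3 arrays), wild-type CMP (3 arrays) and wild-type GMP (4 arrays). PR is read here as PML-RARA from the title of the series, and PR+/- Dnmt3a-/- cells carry it together with the loss of Dnmt3a. The strain is given as C57Bl/6J for the wild-type and Dnmt3a-/- samples. The strain of the PR+/- samples, the promoter that drives PR, how Dnmt3a was deleted and in which cells, the age of the animals and whether animals were pooled are not given in the sources used here. Nothing in the labels says whether replicate arrays stand for different mice, so a p-value here reflects no more than the spread among these 19 samples, which may be technical. In bulk samples such as these, fewer cells of a type and less RNA per cell cannot be told apart.

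As background, type I interferons signal through the receptor chains Ifnar1 and Ifnar2 and the kinases Jak1 and Tyk2 to a transcription factor complex that includes Stat2 and Irf9 and binds the interferon-stimulated response element in the promoters of these genes. Interferon gamma signals through its own receptor to the gamma-activated site, and Irf1 and Irf7 then extend the response. In bone marrow, interferon is known to change how blood stem and progenitor cells divide and mature, and a low level of these genes is present without infection.

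The promoters of the 6 genes with the smallest p in the averaged comparison of Dnmt3a-/- with wild-type cells, described below, are shown because they let a reader see whether the response element letters lie at the start of the genes that moved. They come from RefSeq, span 300 bases, most of them before a listed start, and are given 5′ to 3′ on the strand of the gene, with coordinates of GRCm38.p6. Capitals mark matches to GAAA, any 2 bases, GAAA, the core of the interferon-stimulated response element, or to TTCNNNGAA, the gamma-activated site, on either strand; in Gbp3 a pair of matches overlaps. The windows are those of Gbp3 at chr3:142559794-142560093 (forward strand), Isg20 at chr7:78913174-78913473 (forward strand), Cmpk2 at chr12:26468965-26469264 (forward strand), Ifih1 at chr2:62646206-62646505 (reverse strand), Igtp at chr11:58199306-58199605 (forward strand) and Ddx58 at chr4:40239776-40240075 (reverse strand).
Gbp3: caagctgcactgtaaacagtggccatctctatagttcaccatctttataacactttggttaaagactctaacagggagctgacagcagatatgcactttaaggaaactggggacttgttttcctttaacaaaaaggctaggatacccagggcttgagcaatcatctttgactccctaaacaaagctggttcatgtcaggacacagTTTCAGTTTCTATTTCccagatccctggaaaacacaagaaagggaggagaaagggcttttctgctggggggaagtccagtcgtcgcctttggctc
Isg20: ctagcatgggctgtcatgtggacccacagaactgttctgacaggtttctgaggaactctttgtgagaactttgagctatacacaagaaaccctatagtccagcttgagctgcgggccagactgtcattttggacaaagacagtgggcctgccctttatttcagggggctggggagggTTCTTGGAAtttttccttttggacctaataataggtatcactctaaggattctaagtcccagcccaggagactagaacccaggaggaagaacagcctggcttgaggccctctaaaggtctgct
Cmpk2: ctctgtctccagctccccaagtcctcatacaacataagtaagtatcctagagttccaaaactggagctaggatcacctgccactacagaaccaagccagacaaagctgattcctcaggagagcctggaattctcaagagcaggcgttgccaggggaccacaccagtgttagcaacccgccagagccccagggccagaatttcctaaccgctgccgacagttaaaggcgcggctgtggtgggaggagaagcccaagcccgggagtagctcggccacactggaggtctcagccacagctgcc
Ifih1: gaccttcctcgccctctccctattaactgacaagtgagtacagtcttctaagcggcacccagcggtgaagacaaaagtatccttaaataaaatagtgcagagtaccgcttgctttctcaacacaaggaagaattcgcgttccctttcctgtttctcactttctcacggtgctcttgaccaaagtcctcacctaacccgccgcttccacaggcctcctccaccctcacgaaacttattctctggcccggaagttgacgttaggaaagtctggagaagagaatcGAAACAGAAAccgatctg
Igtp: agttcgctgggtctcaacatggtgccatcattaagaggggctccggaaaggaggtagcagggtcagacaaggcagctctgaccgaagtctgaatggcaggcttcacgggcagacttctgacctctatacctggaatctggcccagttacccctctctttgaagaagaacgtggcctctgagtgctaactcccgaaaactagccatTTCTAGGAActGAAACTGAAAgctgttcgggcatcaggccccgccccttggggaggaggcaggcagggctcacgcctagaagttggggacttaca
Ddx58: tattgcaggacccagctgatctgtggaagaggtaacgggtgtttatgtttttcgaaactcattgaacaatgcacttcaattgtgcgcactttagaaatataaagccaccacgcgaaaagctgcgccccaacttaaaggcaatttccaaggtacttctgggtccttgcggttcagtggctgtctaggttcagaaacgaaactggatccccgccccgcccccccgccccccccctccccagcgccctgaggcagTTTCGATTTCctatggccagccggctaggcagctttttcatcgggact

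Of the 42 genes, 33 had a promoter in the table, and 17 of them (51.5%) held the response element core in at least 1 listed window, against 3.99% of all 27025 genes. The gamma-activated site letters were held by 11 of the 33 (33.3%), against 9.55% of all genes. The promoters of Gbp3 and Igtp held the response element core before the start, with the nearest match beginning 39 and 34 bases upstream, those of Ddx58 and Ifih1 held it just after the start, that of Isg20 held only the gamma-activated site letters, and that of Cmpk2 held neither. Gbp3 has 2 and Isg20 has 3 listed starts, and the window with a match is the one shown. A match is a description of the letters and not of a bound factor. Psmb9 and Tap1 are neighbours whose windows overlap, so they share part of their sequence, and Rsad2 and Cmpk2 are also neighbours.

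A level is the mean log2 intensity of the probe sets of a gene, and levels are compared only between samples and not between genes, since each probe set has its own brightness. The mean over the 38 genes lay between 5.50 and 6.23 on every array. It was 6.13 to 6.23 in Dnmt3a-/- CMP and 5.98 to 6.13 in wild-type CMP, 5.77 to 5.93 in Dnmt3a-/- GMP and 5.74 to 5.84 in wild-type GMP, and 5.50 to 5.63 in PR+/- Dnmt3a-/- GMP and 5.55 to 5.78 in PR+/- GMP. Of the 38 genes, 21 had their highest group mean in Dnmt3a-/- CMP and 8 in wild-type CMP. The lowest group mean was in PR+/- Dnmt3a-/- GMP for 13, in PR+/- GMP for 10 and in wild-type GMP for 10. The shares over all genes were not computed. The group means of Ifi203, a DNA-sensing relative of the Ifi200 family, spanned 3.58 on the log2 scale, the widest of the 38, from 7.86 in Dnmt3a-/- CMP to 4.28 in PR+/- Dnmt3a-/- GMP. Those of Stat2, a part of the response complex, spanned 0.35, the narrowest.

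**Figure D1:**
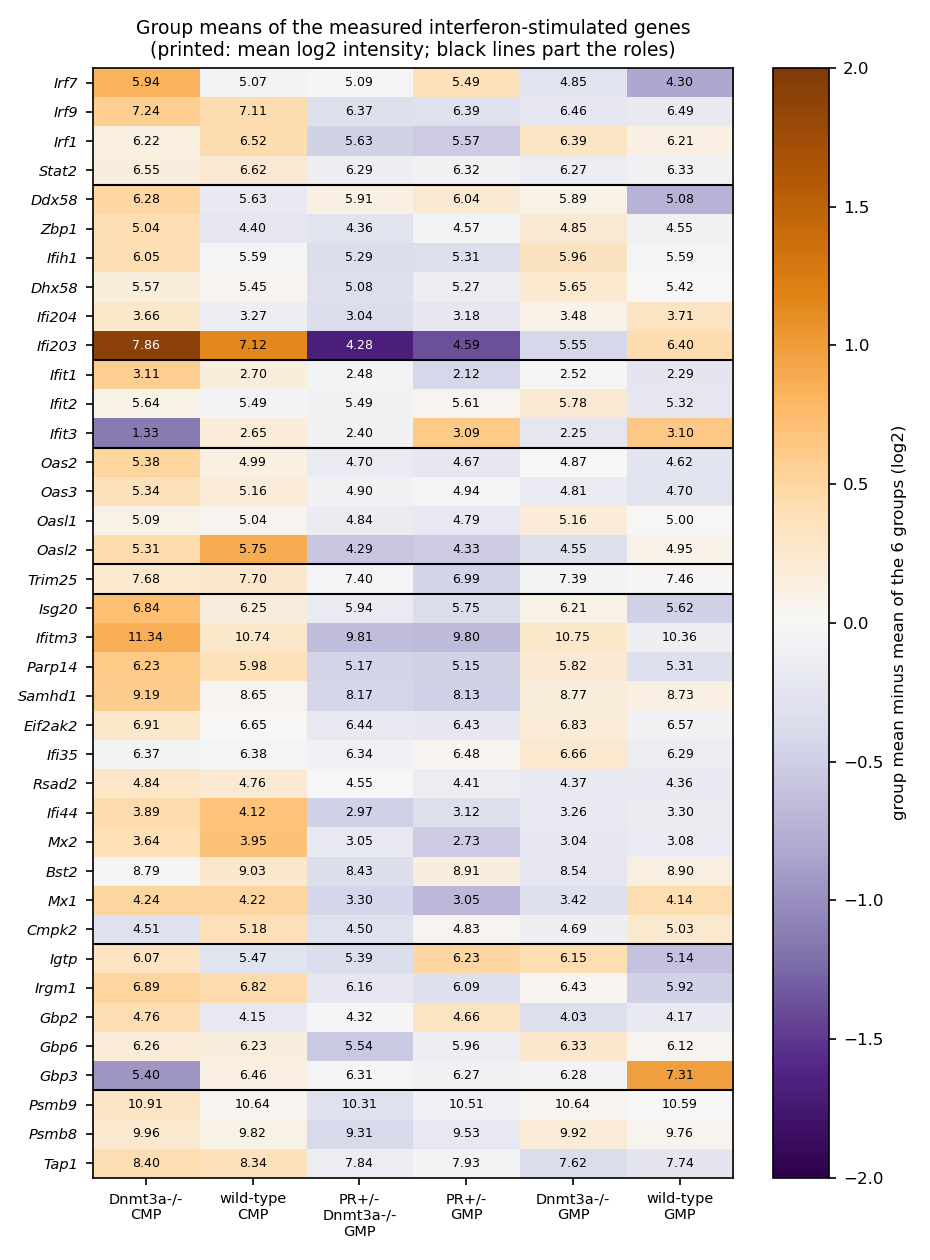
Group means of the 38 measured interferon-stimulated genes in the 6 groups, printed as log2 intensity. The colour gives each mean minus the average of the gene's 6 group means, so it compares groups within a row and not genes with each other. Ifi203 spans 7.86 to 4.28, and Gbp3 stands highest in wild-type GMP at 7.31 and lowest in Dnmt3a-/- CMP at 5.40.

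By the brightness of their probe sets alone, which gives no order of RNA amounts, the brightest and the dimmest gene of each role were Irf9 and Irf7 among the transcription factors, Ifi203 and Ifi204 among the sensors, Ifit2 and Ifit3 among the IFIT proteins, Oasl1 and Oas2 among the oligoadenylate synthetases, Ifitm3 and Mx2 among the other antiviral effectors, Gbp3 and Gbp2 among the GTPases, and Psmb9 and Tap1 in antigen processing. The median signal of 29 genes of other tissues, 3.95 (quartiles 3.56 and 4.42), was taken as the background of the arrays. Ifit1, Ifit3, Mx1, Mx2, Ifi44 and Ifi204 had means over all 19 arrays at or below it, so a change in these 6 could be masked. Ifit1 and Ifit3, of the family that binds foreign RNA, rest on 1 probe set each. Their within-group SDs, 0.78 and 1.27, were the largest of the 38, against a median of 0.27 for the 38 genes and 0.24 for all genes.

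Facts of the arrays that touch the results are as follows. The target, Dnmt3a, had levels of 6.37 to 6.49 in Dnmt3a-/- CMP and 7.24 to 7.65 in wild-type CMP, 6.06 to 6.22 in Dnmt3a-/- GMP and 7.30 to 7.59 in wild-type GMP, and 5.82 to 6.26 in PR+/- Dnmt3a-/- GMP and 7.07 to 7.20 in PR+/- GMP, so every array followed its label. The mean of the Y-linked genes was low (2.54 to 3.25) on all 6 Dnmt3a-/- arrays, on wild-type CMP replicate 3, wild-type GMP replicate 4 and PR+/- Dnmt3a-/- replicate 2, and high (6.73 to 7.25) on the other 10. The numbers in the titles, 22298 to 22303 for Dnmt3a-/- and 21986 to 22012 for wild type, did not overlap, so number range and Dnmt3a genotype cannot be told apart. The PR+/- titles carry no such number. Immediate early and heat shock genes, a sign of handling, had mean levels of 7.98 to 9.10 on wild-type CMP replicate 1, wild-type GMP replicates 1 and 2 and PR+/- Dnmt3a-/- GMP replicates 1 and 2, against 6.11 to 7.67 on the other arrays.

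The first question was how loss of Dnmt3a, without PR, changed the interferon-stimulated genes. Averaged over CMP and GMP, 6 of the 38 genes were higher and 2 were lower in Dnmt3a-/- cells (limma, Benjamini-Hochberg adjusted p under 0.05), where 3.54% of all genes were higher and 2.21% lower, or 5.75% in either direction. The genes that rose were Igtp, Ddx58, Irf7, Isg20, Ifitm3 and Ifih1, by 0.42 to 0.81 on the log2 scale, or 1.33-fold to 1.75-fold. The genes that fell were Gbp3, with a log2 difference of -1.05, and Cmpk2, with -0.51. The median difference was 0.15 over the 38 genes and -0.06 over all genes, and 25 of the 38 were above 0, against 39.6% of all genes. The other 30 genes did not pass the test.

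By role, 1 of 4 transcription factors rose (Irf7), as did 2 of 6 sensors (Ddx58 and Ifih1), 2 of 12 other antiviral effectors (Isg20 and Ifitm3) and 1 of 5 GTPases (Igtp), while Cmpk2 among the effectors and Gbp3 among the GTPases fell. None of the 3 IFIT genes, the 4 oligoadenylate synthetases, the 3 antigen-processing genes or Trim25, the ligase that acts on the RNA sensor encoded by Ddx58, passed. Among the antiviral genes that did not pass, the difference was 0.04 for Rsad2 (viperin), 0.32 for Oas2 and 0.15 for Oas3. It was -0.35 for Mx1 and -0.17 for Mx2, of a dynamin-like family. The mean of Mx1 was below background in Dnmt3a-/- GMP (3.42) and above it in Dnmt3a-/- CMP (4.24), wild-type CMP (4.22) and wild-type GMP (4.14). The mean of Mx2 was at or below background in all 6 groups, which could mask a change. Bst2, which tethers budding virus, came closest at -0.30 (adjusted p = 0.058), followed by Samhd1, which depletes nucleotides, at 0.29 (adjusted p = 0.0702).

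**Figure D2:**
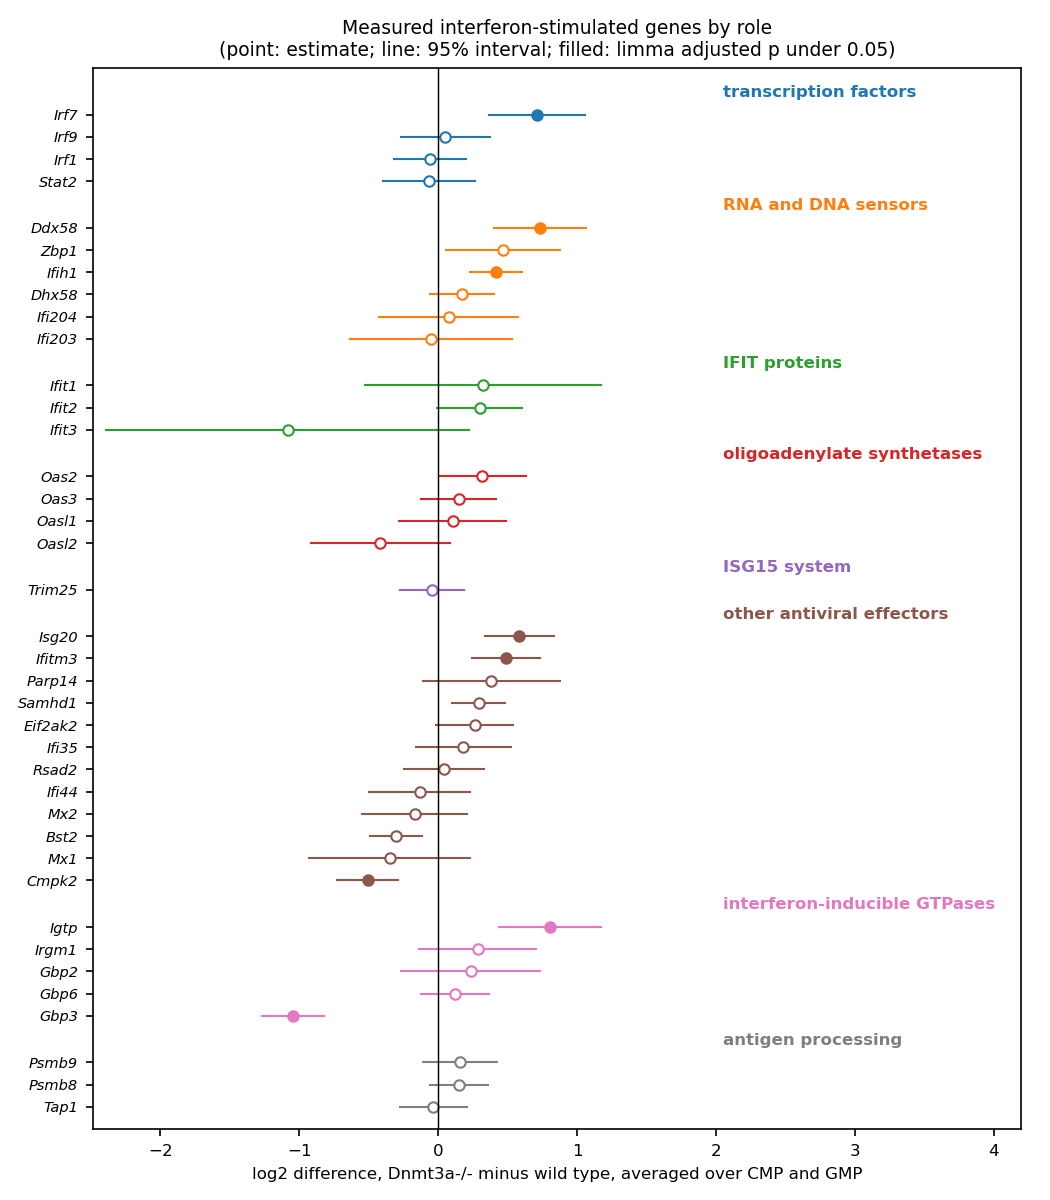
Log2 difference of each of the 38 genes, Dnmt3a-/- minus wild type, averaged over CMP and GMP, grouped by role; points are limma estimates, lines are 95% intervals and filled points have an adjusted p under 0.05. Igtp lies farthest to the right of the filled points at 0.81 and Gbp3 farthest to the left at -1.05, and Ifit3, on 1 probe set, has the widest interval.

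Gbp3 encodes a guanylate-binding protein, one of the GTPases that attack the membranes of intracellular pathogens. Its level was 5.36, 5.43 and 5.42 in Dnmt3a-/- CMP, against 6.30, 6.32 and 6.76 in wild-type CMP. It was 6.23, 6.26 and 6.35 in Dnmt3a-/- GMP, against 7.11, 7.50, 7.21 and 7.44 in wild-type GMP. Every Dnmt3a-/- array lay below every wild-type array of the same cell type, and all 14 probe sets of the gene were lower in both. The averaged difference was -1.05 ± 0.10 (SE), so the level in wild type was 2.06 times that in Dnmt3a-/- cells (adjusted p = 0.000162). Probes for guanylate-binding proteins can cross-react between close paralogs, and this was not tested.

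Cmpk2, a mitochondrial nucleotide kinase whose gene lies next to Rsad2, was the other gene that fell. Its levels were 4.62, 4.38 and 4.53 in Dnmt3a-/- CMP, against 5.46, 5.10 and 4.99 in wild-type CMP. In GMP they were 4.56, 4.66 and 4.86 in Dnmt3a-/- cells, against 5.08, 5.13, 4.91 and 5.02 in wild-type cells. The groups did not overlap in either cell type, and the averaged difference was -0.51 ± 0.10 (SE, adjusted p = 0.0131). Of its 13 probe sets 10 were lower, including all 9 above background.

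Among the sensors, Ddx58 (RIG-I) recognises viral RNA with a free end. It stood at 6.49, 6.18 and 6.15 in Dnmt3a-/- CMP, against 6.07, 5.16 and 5.65 in wild-type CMP. In GMP it stood at 6.10, 5.99 and 5.59 in Dnmt3a-/- cells, against 5.40, 4.89, 5.07 and 4.93 in wild-type cells. The groups did not overlap, although wild-type CMP replicate 1 came within 0.1 of the lowest Dnmt3a-/- CMP array, and the averaged difference was 0.73 ± 0.15 (SE, adjusted p = 0.0172). Ifih1 (MDA5) recognises long double-stranded RNA. Its levels were 6.12, 6.14 and 5.88 in Dnmt3a-/- CMP against 5.53, 5.71 and 5.53 in wild-type CMP, and 6.00, 5.95 and 5.93 in Dnmt3a-/- GMP against 5.69, 5.42, 5.67 and 5.56 in wild-type GMP. It was higher on every Dnmt3a-/- array than on any wild-type array of either cell type, by an average of 0.42 ± 0.09 (SE, adjusted p = 0.0165). The third member of this family, Dhx58 (LGP2), had a difference of 0.17 that did not pass the test.

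Irf7, the factor that drives transcription of type I interferon genes, had levels of 6.07, 5.88 and 5.88 in Dnmt3a-/- CMP, against 5.10, 5.24 and 4.87 in wild-type CMP. In GMP it had 5.35, 4.85 and 4.35 in Dnmt3a-/- cells, against 4.73, 4.07, 4.32 and 4.06 in wild-type cells. The groups were apart in CMP and overlapped in GMP, and the averaged difference was 0.71 ± 0.16 (SE, adjusted p = 0.0243). The other transcription factors, Irf9, Irf1 and Stat2, had differences between -0.06 and 0.05 and did not pass.

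Igtp (Irgm3) encodes a GTPase of the membranes around intracellular pathogens. It had levels of 6.38, 5.74 and 6.09 in Dnmt3a-/- CMP, against 5.73, 5.47 and 5.22 in wild-type CMP. Its levels in GMP were 6.25, 5.64 and 6.57 in Dnmt3a-/- cells, against 4.77, 5.13, 5.39 and 5.26 in wild-type cells. The groups did not overlap in GMP and all but touched in CMP (5.74 against 5.73), with an averaged difference of 0.81 ± 0.17 (SE, adjusted p = 0.0169). The remaining GTPases, Irgm1, Gbp2 and Gbp6, had differences of 0.28, 0.23 and 0.12 that did not pass.

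Isg20 encodes an exonuclease that degrades viral RNA. It had levels of 6.88, 6.76 and 6.86 in Dnmt3a-/- CMP, against 6.55, 6.17 and 6.05 in wild-type CMP. In GMP the values were 6.43, 6.15 and 6.06 in Dnmt3a-/- cells, against 5.37, 5.89, 5.65 and 5.59 in wild-type cells. The groups did not overlap in either cell type, and the averaged difference was 0.58 ± 0.12 (SE, adjusted p = 0.0129). Ifitm3, a membrane protein that blocks viral entry, rests on 2 probe sets. It had 11.26, 11.27 and 11.48 in Dnmt3a-/- CMP against 10.47, 10.98 and 10.78 in wild-type CMP, and 10.87, 10.76 and 10.61 in Dnmt3a-/- GMP against 10.21, 10.66, 10.30 and 10.27 in wild-type GMP. Its groups were apart in CMP, overlapped in GMP through wild-type GMP replicate 2, and differed by 0.49 ± 0.11 on average (SE, adjusted p = 0.0263).

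**Figure D3:**
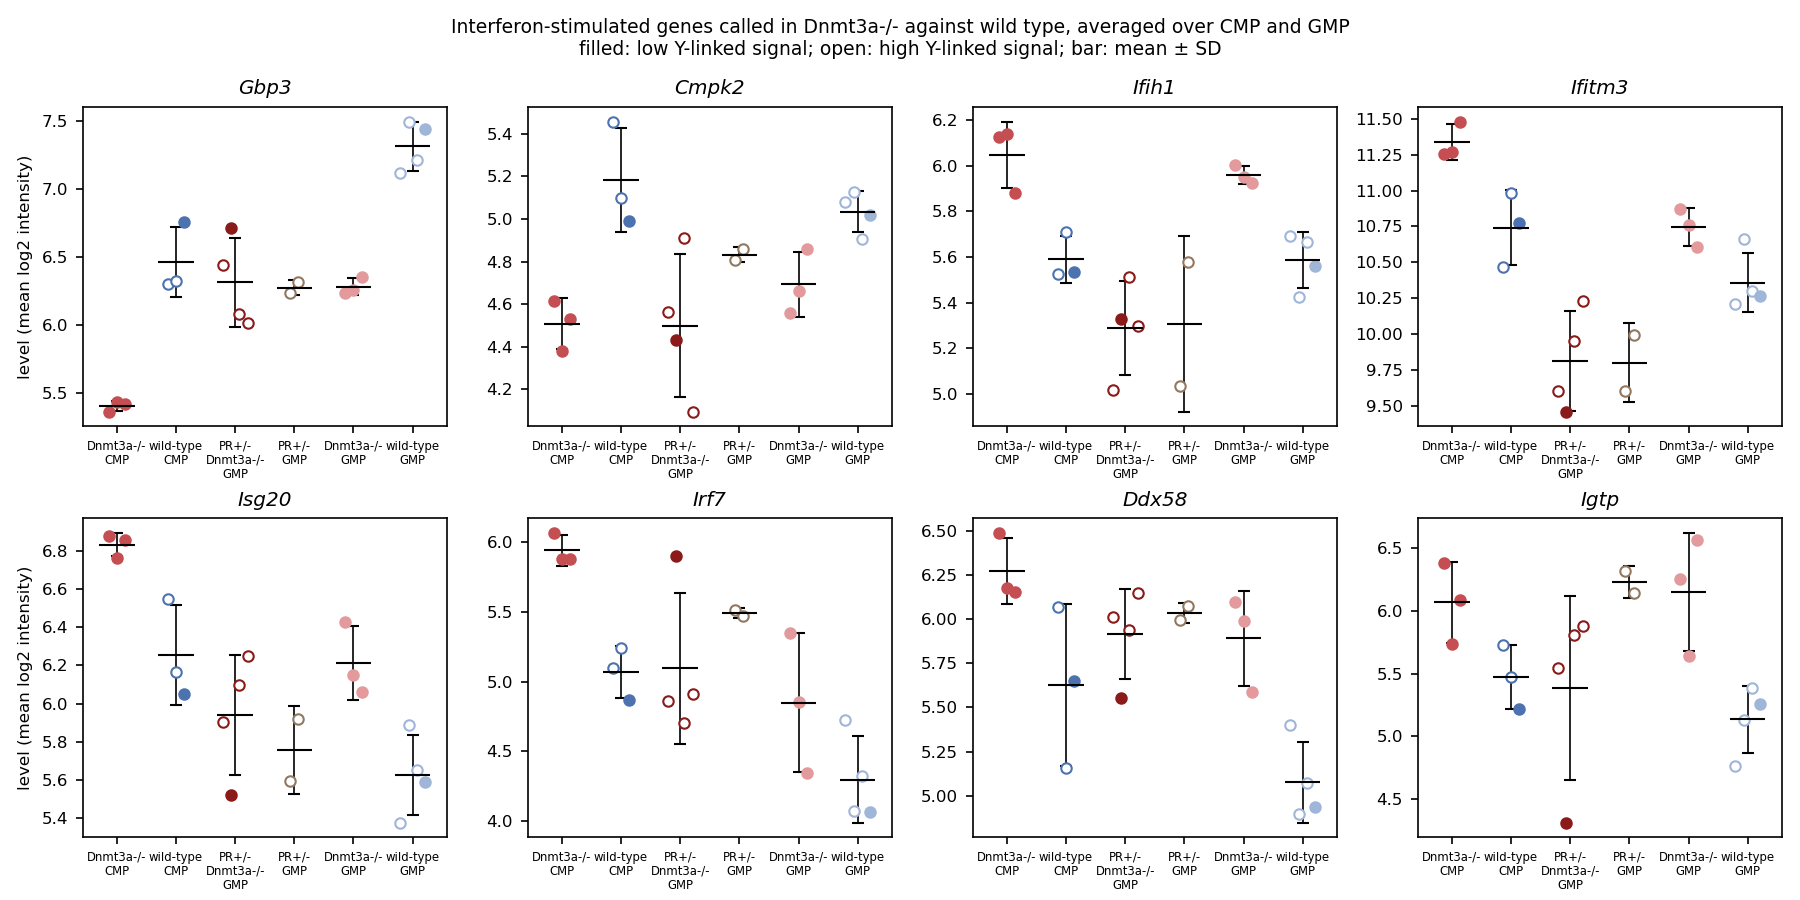
Level of the 8 genes that passed the test in the averaged comparison, on every array of the 6 groups (mean log2 intensity, own scale per gene); bars give the mean and SD, and filled points are arrays of low Y-linked signal. Gbp3 lies between 5.36 and 5.43 on the 3 Dnmt3a-/- CMP arrays and between 6.30 and 6.76 on the wild-type CMP arrays, and the PR+/- Dnmt3a-/- and PR+/- arrays overlap for all of the 8 genes but Igtp.

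These calls depended on the arrays used and on how the probe sets were summarised. With the median of the probe sets in place of the mean, Isg20 (limma adjusted p = 0.325), Irf7, Igtp and Ifitm3 lost their calls. Of all genes 493 passed in that fit. Among the 13 fits that left out 1 array, the call for Irf7 was lost in 5 and that for Ifitm3 in 6. The calls for Gbp3, Cmpk2 and Isg20 were kept in all 13. Without Dnmt3a-/- CMP replicate 1, or without Dnmt3a-/- GMP replicate 1, 4 of the 38 genes passed, 2 higher and 2 lower. Of all genes 439 and 371 passed in these 2 fits. Without the wild-type arrays numbered 21986 to 21988, those with high immediate early genes, 10 of the 38 passed, 7 higher and 3 lower. Of all genes 1261 passed there. With the mean of the Y-linked genes added to the fit as a covariate, Gbp3 alone passed, at -1.28 ± 0.14 (SE, adjusted p = 0.00273). Of all genes 139 passed in that fit, against 907 without the covariate. The arrays of low Y-linked signal leave 1 wild-type CMP and 1 wild-type GMP array, assumed to vary like the other groups. On them the difference was -1.26 for Gbp3 and 0.70 for Isg20. The estimates of the 6 genes that rose were 0.45 to 0.91 with the covariate and 0.46 to 0.93 on the low-signal arrays, against 0.42 to 0.81 without either, while the adjusted p lay between 0.093 and 0.206 with the covariate. That of Cmpk2 was -0.38 with the covariate and -0.40 on those arrays.

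**Figure D4:**
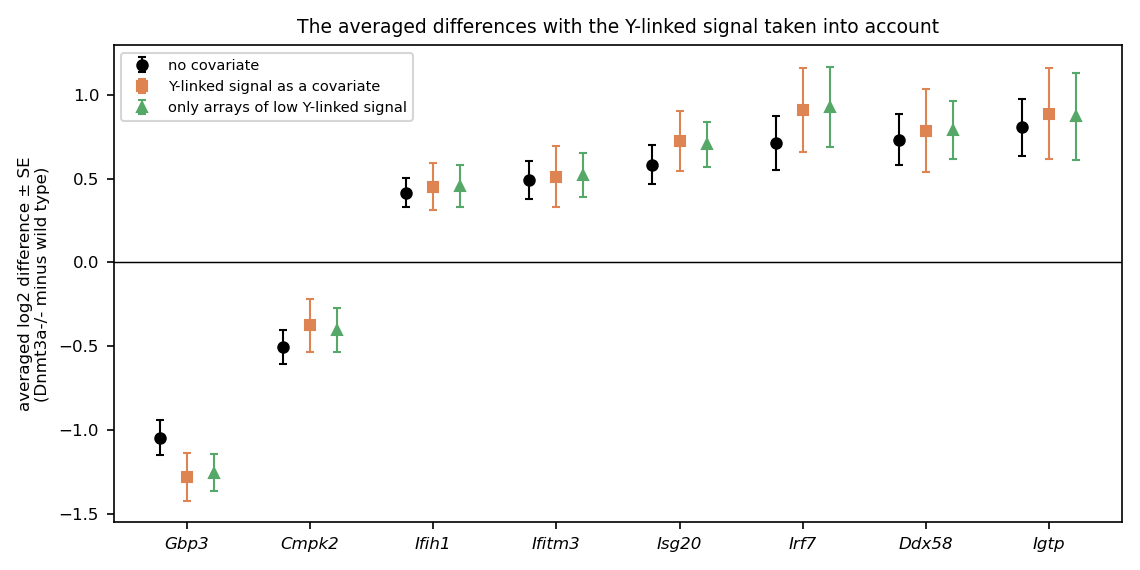
Averaged log2 difference, Dnmt3a-/- minus wild type, with its SE for the 8 genes: without a covariate, with the Y-linked mean added, and on arrays of low Y-linked signal alone. The estimates of Igtp are 0.81, 0.89 and 0.87 and those of Gbp3 are -1.05, -1.28 and -1.26, while the SEs widen.

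Markers of other cells moved in the same comparison. Of 10 genes of conventional dendritic cells and MHC class II, 8 were higher in Dnmt3a-/- cells, among them Cd74 by 2.94 ± 0.20 (SE) on the log2 scale, and the mean level of the list was 7.47 to 8.31 in Dnmt3a-/- CMP against 5.88 to 6.27 in wild-type CMP and 5.98 to 6.27 in Dnmt3a-/- GMP against 4.64 to 5.09 in wild-type GMP. Also higher were 5 of 9 neutrophil maturation genes, 5 of 6 megakaryocyte genes, 4 of 6 basophil and mast cell genes, 3 of 7 stem cell genes and 2 of 5 B cell genes, and 4 of 9 monocyte genes were lower. None of 7 plasmacytoid dendritic cell genes, the cells that make the most type I interferon, passed, and the list stood at 5.41 to 6.00 in Dnmt3a-/- CMP against 5.21 to 5.85 in wild-type CMP and at 4.50 to 4.80 in Dnmt3a-/- GMP against 4.50 to 5.03 in wild-type GMP. None of 8 T and NK cell genes and none of 5 erythroid genes passed. Of the defining genes of CMP and GMP, Cd34 and Mpo were lower. The part of these cells in the differences of the interferon-stimulated genes was not tested.

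In the cell types taken apart, fewer genes passed. In CMP, Gbp3 and Cmpk2 were lower in Dnmt3a-/- cells and no gene was higher, 2 of 38 against 1.28% of all genes (0.919% higher and 0.361% lower). With array weights in the fit 7 were higher and 2 lower in CMP, where 1064 of all 15781 genes passed in either direction. In GMP 5 were higher and 2 lower with weights, where 1733 of all genes passed. Without weights the differences in CMP were -1.06 ± 0.15 for Gbp3 (SE, adjusted p = 0.00407) and -0.67 ± 0.15 for Cmpk2 (SE, adjusted p = 0.0459). The call for Cmpk2 was lost when any 1 of the 6 CMP arrays was left out, with an adjusted p of 0.0625 to 0.169. In GMP, Gbp3 alone passed, at -1.03 ± 0.14 (SE, adjusted p = 0.00352), 1 of 38 against 1.33% of all genes (0.9% higher and 0.431% lower). With the median of its 14 probe sets in place of the mean this was -0.86 with an adjusted p of 0.109. The groups did not overlap for 12 of the 38 genes in CMP, 9 higher and 3 lower, where 23.1% of all genes did not overlap (10.1% higher and 13% lower). They did not overlap for 8 in GMP, 5 higher and 3 lower, where 16.6% of all genes did not (7.88% higher and 8.73% lower).

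No gene of the 38 passed the test for a difference between GMP and CMP in the effect of Dnmt3a loss, and none of all genes did (0%). With no gene past it, this test cannot show that the effects were alike. Unadjusted p-values under 0.05 were found for 2 of the 38 genes (5.26%), against 6.86% of all genes, and none of the 38 passed under any alternative that was run. Ifi203 had the smallest p: its level was 7.48, 8.04 and 8.07 in Dnmt3a-/- CMP against 7.01, 7.09 and 7.25 in wild-type CMP, and 6.32, 5.98 and 4.37 in Dnmt3a-/- GMP against 6.12, 6.92, 6.51 and 6.06 in wild-type GMP. Dnmt3a-/- GMP replicate 3 lay below all other arrays of these 4 groups. The differences were 0.75 in CMP and -0.85 in GMP, with an adjusted p of 0.56 for the difference between them, -1.59 ± 0.54 (SE); without that array it was -0.999. Samhd1 followed: its level was 9.19, 9.15 and 9.22 in Dnmt3a-/- CMP against 8.61, 8.60 and 8.76 in wild-type CMP, groups that were apart, and 8.93, 8.82 and 8.57 in Dnmt3a-/- GMP against 8.75, 8.87, 8.61 and 8.68 in wild-type GMP, groups that overlapped. Its difference was 0.53 in CMP (adjusted p = 0.068) and 0.05 in GMP, and the difference between them had an adjusted p of 0.58. Irf1 was at 6.35, 6.37 and 5.94 in Dnmt3a-/- CMP against 6.76, 6.31 and 6.49 in wild-type CMP, and at 6.26, 6.55 and 6.38 in Dnmt3a-/- GMP against 6.31, 5.93, 6.40 and 6.18 in wild-type GMP. Its groups overlapped in both cell types, with differences of -0.30 in CMP and 0.19 in GMP (adjusted p = 0.768). The 95% interval of the difference for Gbp3 was -0.42 to 0.47.

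Other genes of the interferon pathway were followed from a list of 67 measured genes. Of these, 6 rose and 1 fell in the averaged comparison. Ifi205, a DNA-sensing relative of Ifi203 and Ifi204, rose: it was at 7.58, 8.25 and 9.001 in Dnmt3a-/- CMP against 5.77, 4.92 and 5.05 in wild-type CMP. In GMP it was at 5.10, 5.46 and 4.87 in Dnmt3a-/- cells against 3.82, 3.22, 2.71 and 3.28 in wild-type cells, where the wild-type values lie at or below background. Its groups were far apart in both cell types, with a log2 difference of 3.03 in CMP and, with wild-type values below background raised to the background level, of at least 1.19 in GMP and at least 2.11 on average (adjusted p = 0.000155 for the measured average of 2.46). Cross-reaction with its close relatives was not tested.

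Among the receptors of foreign nucleic acid, Tlr3, which senses double-stranded RNA, was at 5.73, 6.54 and 7.38 in Dnmt3a-/- CMP against 3.53, 3.74 and 3.88 in wild-type CMP, and at 3.79, 4.48 and 4.25 in Dnmt3a-/- GMP against 2.92, 3.49, 3.09 and 2.76 in wild-type GMP. All wild-type values of Tlr3 lay below background, so its log2 difference was at least 2.60 in CMP and at least 1.41 on average (adjusted p = 0.00046 for the measured average of 1.97). Tlr7, which senses single-stranded RNA, was higher by 1.06 ± 0.22 (SE) on average and by 1.83 in GMP alone, where 1 of the 4 wild-type arrays was above background. Slfn5 passed on average (adjusted p = 0.012), but all of its wild-type values lay below background, and its log2 difference was at least 0.86 in CMP. The others that rose on average were the receptor kinase Jak2 by 0.67 and the nuclear body gene Sp100 by 0.44, and Gbp5 fell, with a difference of -0.40. None of the 6 measured interferon genes and none of the 6 measured receptor chains passed. In CMP alone Ifi205, Tlr3 and Slfn5 rose and none fell; in GMP alone Ifi205 and Tlr7 rose, and Irf8, a factor of monocyte and dendritic cell fate that also binds response elements, fell, with a difference of -1.18 ± 0.24 (SE, adjusted p = 0.0342). With the Y-linked covariate Ifi205 and Tlr3 kept their calls in the averaged comparison and the other 5 lost them. The averaged call for Sp100 was also lost with adjacent Dnmt3a-/- numbers as a random block and when any of 12 of the 13 arrays was left out, all but wild-type CMP replicate 1. That for Gbp5 was lost when any of 6 arrays was left out (wild-type CMP replicates 2 and 3, Dnmt3a-/- CMP replicates 1 to 3 and Dnmt3a-/- GMP replicate 1), and those for Tlr7 on average and in GMP were lost without Dnmt3a-/- GMP replicate 1. The call for Slfn5 in CMP was lost without any of the 6 CMP arrays but Dnmt3a-/- CMP replicate 1. That for Irf8 in GMP was lost when any of the 7 GMP arrays but wild-type GMP replicate 2 was left out. It was also lost with only the 2 groups compared, with all 19 arrays and with the Y-linked covariate. That for Ifi205 in GMP was lost without Dnmt3a-/- GMP replicate 1 or 2.

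The second question was whether loss of Dnmt3a changed these genes in GMP that carry PR. No gene of the 38 passed in PR+/- Dnmt3a-/- GMP against PR+/- GMP, and none of all genes did (0%); 1 of the 38 had an unadjusted p under 0.05, where 7.96% of all genes did. The target itself did not pass here either, at -1.05 ± 0.18 (SE, adjusted p = 0.478). The median difference was -0.04 over the 38 genes and -0.03 over all genes. The gene with the smallest p was Trim25, at 7.43, 7.40, 7.37 and 7.39 in PR+/- Dnmt3a-/- GMP against 6.96 and 7.02 in PR+/- GMP, a difference of 0.41 ± 0.14 (SE, adjusted p = 0.62) between groups that did not overlap. Bst2 was at 8.39, 7.96, 8.70 and 8.66 in PR+/- Dnmt3a-/- GMP against 8.89 and 8.93 in PR+/- GMP (-0.48, adjusted p = 0.633). Igtp was at 5.54, 4.31, 5.81 and 5.88 in PR+/- Dnmt3a-/- GMP against 6.32 and 6.14 in PR+/- GMP (-0.85, adjusted p = 0.64). All 4 arrays of the double mutant lay below both PR+/- arrays for Bst2 and Igtp. Without PR+/- Dnmt3a-/- replicate 2, the lowest array for Igtp, its difference was -0.49. Groups did not overlap for 5 of the 38 genes, 1 higher and 4 lower, where 20.6% of all genes did not (8.28% higher and 12.3% lower).

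The 8 genes that passed without PR are set beside their values with PR. Gbp3 was at 6.44, 6.71, 6.08 and 6.01 in PR+/- Dnmt3a-/- GMP against 6.23 and 6.31 in PR+/- GMP, overlapping groups with a difference of 0.04 (95% interval -0.49 to 0.57). Cmpk2 had a difference of -0.33 (95% interval -0.87 to 0.21). For the 6 genes that rose without PR, the differences with PR were 0.19 for Isg20, 0.01 for Ifitm3, -0.02 for Ifih1, -0.12 for Ddx58, -0.40 for Irf7 and -0.85 for Igtp, none past the test. The interval for Igtp ran from -1.84 to 0.14 and that for Isg20 from -0.36 to 0.73, so with 2 PR+/- arrays differences as large as those without PR lie within the interval for Isg20 and outside it for Igtp, whose value rests in part on the low array named above.

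**Figure D5:**
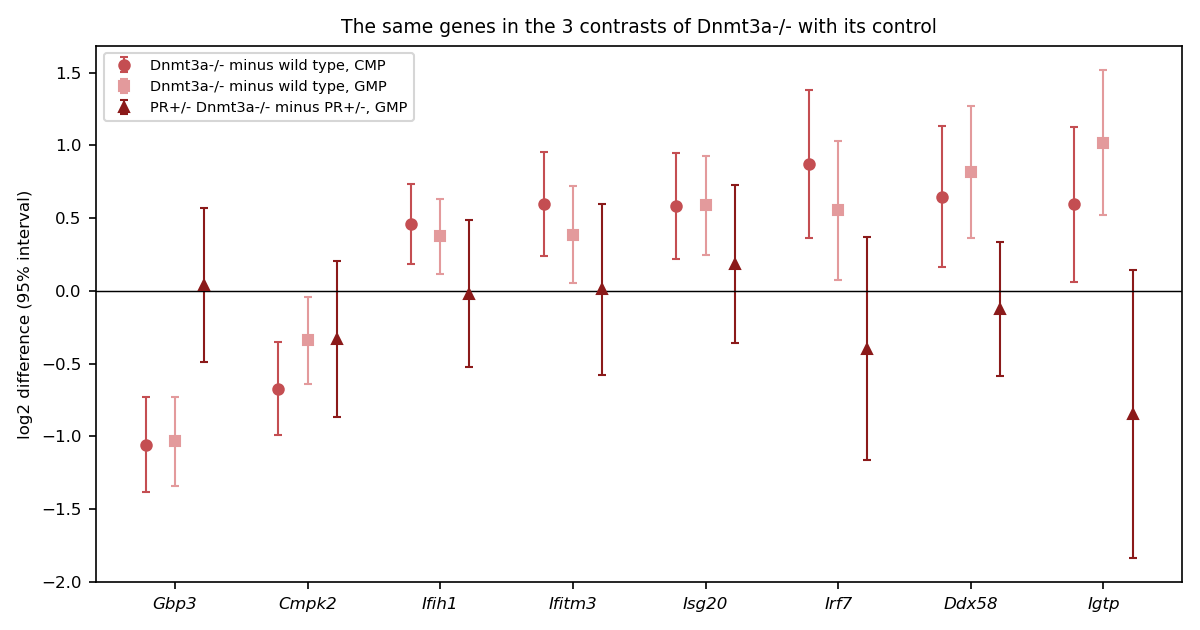
Log2 differences with 95% intervals for the 8 genes: Dnmt3a-/- minus wild type in CMP and in GMP, and PR+/- Dnmt3a-/- minus PR+/- in GMP. Gbp3 stands at -1.06, -1.03 and 0.04, and Igtp at 0.59, 1.02 and -0.85.

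The difference of the Dnmt3a effect between GMP with and without PR was tested directly. No gene of the 38 passed, against 0.0317% of all genes, and 6 of the 38 (15.8%) had an unadjusted p under 0.05, as did 2209 of all 15781 genes, a share close to it. The smallest p was that of Gbp3, whose difference was 1.07 ± 0.26 (SE, adjusted p = 0.165), followed by Igtp at -1.87 ± 0.50 (SE, adjusted p = 0.198) and Ddx58 at -0.94 ± 0.27 (SE, adjusted p = 0.215). None of the 38 passed under any alternative that was run.

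The third question was how GMP with PR differed from GMP without it, a difference that cannot be told apart from the style of label. PR+/- GMP were compared with wild-type GMP and PR+/- Dnmt3a-/- GMP with Dnmt3a-/- GMP. The first shares its wild-type arrays, and the second its Dnmt3a-/- arrays, with the comparison of Dnmt3a-/- GMP with wild-type GMP. The values of these comparisons are therefore set side by side only. In PR+/- GMP, 3 of the 38 genes passed, 1 higher and 2 lower, against 3.07% of all genes (2.19% higher and 0.881% lower). Ddx58 was higher, at 6.00 and 6.08 in PR+/- GMP against 5.40, 4.89, 5.07 and 4.93 in wild-type GMP, a difference of 0.96 ± 0.21 (SE, adjusted p = 0.0247). Gbp3 was lower, at 6.23 and 6.31 in PR+/- GMP against 7.11, 7.50, 7.21 and 7.44 in wild-type GMP, a difference of -1.04 ± 0.20 (SE, adjusted p = 0.0128). Ifi203 was lower, at 4.38 and 4.79 in PR+/- GMP against 6.12, 6.92, 6.51 and 6.06 in wild-type GMP, a difference of -1.82 ± 0.45 (SE, adjusted p = 0.0463). The groups were apart for all 3. No gene of the 38 passed without PR+/- replicate 1, without PR+/- replicate 2, or with the median of the probe sets. Without wild-type GMP replicate 3, 1 passed. The call for Ifi203 was lost when any 1 of the 6 arrays was left out, with a limma adjusted p of 0.0658 to 0.425. It was also lost with the Y-linked covariate and with the brighter probe sets. Groups did not overlap for 16 of the 38 genes, 5 higher and 11 lower, where 28.5% of all genes did not (16.1% higher and 12.3% lower).

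In the same cells, of the 67 other pathway genes none rose and 2 fell: Irf8, with a difference of -1.97 ± 0.42 (SE, adjusted p = 0.0232), and Irf5, a factor downstream of Toll-like receptors, with -1.11 ± 0.16 (SE, adjusted p = 0.00308). In PR+/- GMP 4 of 6 basophil and mast cell genes were higher than in wild-type GMP, with a mean level of the list of 9.41 to 9.51 in PR+/- GMP against 7.13 to 7.84 in wild-type GMP, and 2 of 9 monocyte genes were lower and 1 higher. Immediate early and heat shock genes stood at 6.19 to 6.45 in PR+/- GMP against 6.45 to 8.07 in wild-type GMP, with a median difference of -1.24, and none of the 12 passed. Without the high wild-type GMP replicates 1 and 2 none of the 38 interferon-stimulated genes passed. Of all genes 218 passed in that fit, which has fewer arrays, against 484 with all of them. The part of the marker genes and of the immediate early and heat shock genes in the result was not tested.

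In PR+/- Dnmt3a-/- GMP against Dnmt3a-/- GMP, 2 of the 38 genes were lower and none higher, against 1.24% of all genes (0.678% higher and 0.558% lower). Ifitm3 was at 9.60, 9.46, 9.95 and 10.23 in PR+/- Dnmt3a-/- GMP against 10.87, 10.76 and 10.61 in Dnmt3a-/- GMP, a difference of -0.94 ± 0.19 (SE, adjusted p = 0.0351). Irf1, a factor induced through the gamma-activated site, was at 5.37, 5.72, 5.98 and 5.48 in PR+/- Dnmt3a-/- GMP against 6.26, 6.55 and 6.38 in Dnmt3a-/- GMP, a difference of -0.76 ± 0.17 (SE, adjusted p = 0.0497). The groups did not overlap for either gene. The median difference was -0.27 over the 38 genes, with 11 above 0, and 0.04 over all genes, and groups did not overlap for 9 of the 38 genes, 1 higher and 8 lower, where 14.8% of all genes did not (8.06% higher and 6.69% lower). Leaving out Dnmt3a-/- GMP replicate 1 or 2, or PR+/- Dnmt3a-/- GMP replicate 1 or 2, left none that passed. Leaving out Dnmt3a-/- GMP replicate 3 or PR+/- Dnmt3a-/- GMP replicate 4 left 1. The mean of the Y-linked genes was 2.54 to 2.91 in Dnmt3a-/- GMP, against 6.98, 3.12, 6.75 and 7.01 in PR+/- Dnmt3a-/- GMP. With that mean as a covariate none of the 38 passed, Ifitm3 and Irf1 included. Of all genes 11 passed in that fit, against 195 without the covariate. Of the 67 other pathway genes none rose and 4 fell, with differences of -1.20 for Ikbke (a kinase that activates Irf3 and Irf7) and -1.05 for Irf5. Ifi205 and Tlr3 lay below background on all 4 PR+/- Dnmt3a-/- arrays, so their log2 values were lower by at least 1.19 and 0.22 (bounds of -1.19 and -0.22). Of 10 dendritic cell and MHC class II genes 5 fell, as did 2 of 9 monocyte genes, and the dendritic cell list stood at 4.71 to 5.15 in PR+/- Dnmt3a-/- GMP against 5.98 to 6.27 in Dnmt3a-/- GMP. Immediate early and heat shock genes stood at 6.11 to 9.10 in PR+/- Dnmt3a-/- GMP against 6.78 to 7.18 in Dnmt3a-/- GMP. Without the high PR+/- Dnmt3a-/- replicates 1 and 2 none of the 38 passed. Of all genes 50 passed in that fit, which has fewer arrays, against 195 with all of them. The part of these lists in the result was not tested.

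The last comparison set wild-type GMP against wild-type CMP, the 2 stages without either mutation. Its arrays are also the wild-type arrays of the comparisons above. Of the 38 genes 1 was higher and 2 were lower in GMP, against 4.3% of all genes (1.87% higher and 2.43% lower). Gbp3 was at 7.11, 7.50, 7.21 and 7.44 in GMP against 6.30, 6.32 and 6.76 in CMP, a difference of 0.86 ± 0.14 (SE, adjusted p = 0.00382). Isg20 was at 5.37, 5.89, 5.65 and 5.59 in GMP against 6.55, 6.17 and 6.05 in CMP, a difference of -0.63 ± 0.16 (SE, adjusted p = 0.0406). Tap1, which carries peptides into the endoplasmic reticulum for antigen presentation, was at 7.79, 7.59, 7.67 and 7.90 in GMP against 8.73, 8.13 and 8.18 in CMP, a difference of -0.61 ± 0.15 (SE, adjusted p = 0.0399). The groups were apart for all 3 genes, and for 9 of the 38 in all, 1 higher and 8 lower, where 13.9% of all genes did not overlap (7.2% higher and 6.65% lower).

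The median difference between GMP and CMP was -0.26 over the 38 genes, with 6 above 0, and 0.04 over all genes. Of the other pathway genes Ikbke rose by 0.93, and Tap2, the partner of Tap1, fell, with a difference of -0.55. Ifi205 also fell, with a bound of -1.29, since its wild-type GMP values lay below background. Of the 38 genes 1 passed without wild-type CMP replicate 1, wild-type GMP replicate 3 or wild-type GMP replicate 4, and none passed with these 2 groups alone in the fit. With the median of its probe sets in place of the mean, Gbp3 had a difference of 0.42 (adjusted p = 0.45). The wild-type arrays numbered 21986 to 21988 are those with high immediate early genes. With the number range as a block 6 of the 38 passed, 1 higher and 5 lower, where 1049 of all genes passed. Within the arrays numbered 22003 to 22012 it was 1 higher and 1 lower, where 379 of all genes passed. Of 10 dendritic cell and MHC class II genes 6 were lower in GMP, as were 3 of 7 plasmacytoid dendritic cell genes, which stood at 4.50 to 5.03 in GMP against 5.21 to 5.85 in CMP. Also lower were 3 of 5 erythroid genes (5.22 to 5.67 in GMP against 6.52 to 7.74 in CMP) and 4 of 6 megakaryocyte genes (5.14 to 6.12 in GMP against 6.39 to 6.80 in CMP), and of 6 basophil and mast cell genes 3 were higher and 1 lower; their part in the result was not tested.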

How the data were processed

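Per the labels, total RNA of sorted cells was amplified, labelled with biotin and hybridised to exon arrays. The authors deposited 1 linear intensity per probe set and array for 194293 probe sets; per the submitters' processing notes, RMA and Partek were used with mm9 as the build, and no source used here says whether all arrays were normalised together. The deposited intensities were used as given, after taking log2 (array medians 53.0 to 56.8), and the number of arrays limits the precision. The level of a gene was the mean log2 of its probe sets that carry that symbol alone in the platform annotation, for 15781 genes (median 9 probe sets each); the annotation gives no exon positions, and symbols were updated through RefSeq.

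Groups follow the labels. Differences were fitted with limma 3.58.1 in R 4.3.3 (lmFit and eBayes, Benjamini-Hochberg over all genes, threshold 0.05): over the 13 wild-type and Dnmt3a-/- arrays for the Dnmt3a-/- and stage comparisons, the 6 PR+/- arrays for loss of Dnmt3a with PR, and the 13 GMP arrays for PR and the difference of effects. The fit was tested on simulated data. Values in every array are given for each of the 38 genes that passed in any comparison and for the 3 with the smallest p where none passed, and pathway genes past the threshold in a Dnmt3a-/- comparison are named; the gene with the strongest and weakest signal of each role is named. The genes, pathway lists and marker lists were chosen with earlier results of these data known, and the genes of other tissues that set the background and the fit on arrays of low Y-linked signal were added after the data were seen. PR+/- and PR+/- Dnmt3a-/- replicates that share a number were only weakly correlated across genes after the group means were taken off (r = 0.0774 and 0.0169), so they were not paired. Replicates that do not share a number were not compared in this way. Alternatives were the median of the probe sets or only the brighter ones, leaving out dim genes, quantile normalisation, array weights, other sets of arrays, the Y-linked signal as a covariate and leaving out each array.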

Additional observations from a re-analysis of the deposited data

Results flagged for a closer look

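In groups of 4 arrays, 1 array stood far from the other 3 (Dixon's test, gap over range above 0.829) in 5 of 92 cases, over the 38 genes and 8 pathway genes in 2 such groups, where chance gives about 1 in 20. In PR+/- Dnmt3a-/- GMP, replicate 4 was low for Mx1 at 3.10 (others 3.36 to 3.37) and for Ifi204 at 2.83 (others 3.10 to 3.11), and replicate 2 was high for Oas3 at 5.16 (others 4.79 to 4.84). In wild-type GMP, replicate 1 was high for Oasl2 at 5.72 (others 4.60 to 4.79) and low for Ifi204 at 3.29 (others 3.83 to 3.87). Mx1 in that group and Ifi204 lie below the background level of 3.95, and none of these 4 genes passed a test.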

How the results depend on the processing

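Of 850 alternatives for 44 single-gene results, none reversed the direction, 663 kept the call or its absence and 187 lost a call. Counts of the 38 genes that passed moved as follows. For Dnmt3a-/- CMP the count, 2, was 1 with the median of the probe sets, quantile normalisation, these 2 groups alone, all 19 arrays, the Y-linked covariate and arrays of low Y-linked signal, 9 with array weights, and 1 to 1 when single arrays were left out. For Dnmt3a-/- GMP the count, 1, was 0 with the median, 2 with the brighter probe sets and without dim genes, 7 with array weights and 1 to 2 without single arrays. For the average the count, 8, was 4 with the median, 13 with array weights and 1 with the Y-linked covariate. It was 4 to 9 without single arrays and 10 without the wild-type arrays numbered 21986 to 21988. A random block for adjacent Dnmt3a-/- numbers gave 6 higher and 2 lower. For PR+/- GMP the count, 3, was 0 with the median and without arrays 21986 to 21988, 6 with array weights, 5 with all 19 arrays and 0 to 2 without single arrays. For PR+/- Dnmt3a-/- GMP against Dnmt3a-/- GMP the count, 2, was 0 with the median, the brighter probe sets, these 2 groups alone, the Y-linked covariate and without both arrays numbered 1 and 2, 4 without dim genes, 6 with array weights, 5 with all 19 arrays and 0 to 3 without single arrays. For wild-type GMP against CMP the count, 3, was 1 with the median, 0 with these 2 groups alone, 6 with the number range as a block and 1 to 4 without single arrays. For PR+/- Dnmt3a-/- against PR+/- GMP the count was 0 throughout, also with a replicate block on the shared numbers, and for both differences of effects it was 0 throughout. Over all genes the calls, with their lowest and highest over all alternatives, were 202 (61 to 1064) for Dnmt3a-/- CMP, 210 (34 to 1733) for Dnmt3a-/- GMP, 907 (139 to 3248) for the average, 0 (0 to 21) for PR+/- Dnmt3a-/- against PR+/- GMP, 484 (43 to 1045) for PR+/- GMP, 195 (11 to 935) for PR+/- Dnmt3a-/- against Dnmt3a-/- GMP, 678 (258 to 1049) for wild-type GMP against CMP, 0 (0 to 48) for the difference between GMP and CMP and 5 (0 to 40) for that with and without PR. The cause of these shifts was not tested. The arrays give no detection call, so signal near background limits the 6 dim genes. It may also limit values below the upper quartile of the background genes, 4.42.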
